A study of Rattus norvegicus with 8 samples.

Results

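Mapt, App, Bin1, Clta and Dnm2 were followed through the spinal cord of rats with EAE (experimental autoimmune encephalomyelitis), in which T cells inflame the brain and cord. They were read by every probe set that the array's annotation assigns to 1 of these symbols alone. These are 5 of the 7830 symbols annotated in this way and 90 of the 80939 probe sets on the array, with 17 for Mapt, 22 for App, 19 for Bin1, 9 for Clta and 23 for Dnm2. A probe set reads an exon or part of one. The array annotation used here gives no exon number or position, so probe sets are named by their number and none is tied to a known alternative exon.

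The animals were 8 virgin female Lewis rats aged 16 weeks, 1 exon array each. The 4 rats with EAE (217, 218, 219 and 241) had received 50 µg of myelin basic protein from guinea pig brain in incomplete Freund's adjuvant with mycobacteria (M.Butiricium in the labels) under the skin at the tail base, and cords were collected at peak disease on day 13. The 4 healthy controls (193, 194, 195 and 196) were untreated littermates of the same age. They received neither the adjuvant nor the myelin protein, so effects of both stand together with those of the disease in every EAE value. The whole cord was pooled across its cell types.

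Tau, encoded by Mapt, binds and stabilises axonal microtubules, and alternative exons change its microtubule-binding repeats and its amino-terminal part. The amyloid precursor protein App is a membrane protein cut by secretases, and forms with a protease-inhibitor domain are made mostly outside neurons. The other members act in clathrin-mediated endocytosis, in which clathrin coats bend the membrane and dynamin cuts the vesicle free. Bin1, also called amphiphysin II, senses membrane curvature and has brain forms with a clathrin-binding region. Clta is clathrin light chain A, whose neuronal form carries inserted exons. Dnm2 is the widely expressed dynamin, while Dnm1 is the main dynamin of synapses.

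Values are log2 intensities, so a change of 1 is a doubling or halving. Levels of different probe sets or genes are not read as differences in RNA amount, since probes differ in brightness. They serve to name the brightest probe sets, to group probe sets by level and to show which lie near background. A probe set counted as measured when it reached log2 3.98, the 25th percentile of all values, on at least 4 arrays. Of the 90 probe sets 88 were measured, 86 of them at or above that value on all 8 arrays. The probe sets not measured were Mapt 6031211 (means 3.93 in EAE and 3.59 in controls) and Dnm2 6632024 (3.59 in EAE and 3.54 in controls). Across the 8 arrays the SD of all log2 values ran between 2.11 and 2.26, and it was smallest on control 195. Precision is limited by having 4 arrays per group, and p-values for genes and for single probe sets rest on the spread between individual rats.

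The first question was whether each gene as a whole differed in the diseased cord. Dnm2 was higher and Bin1 was lower in EAE, each without overlap between the groups, while App and Clta differed by less than the spread between rats. Mapt had a lower mean in EAE that did not pass the test. In limma over 6961 genes, 13.7% rose and 17.4% fell at an adjusted p under 0.05 (31.1% in all), and the groups did not overlap in 33.2%, so 2 called genes of 5 is near what the array shows in general.

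Dnm2 had gene levels of 7.76, 7.59, 7.59 and 7.71 in the EAE rats 217, 218, 219 and 241, against 7.24, 6.83, 6.85 and 7.04 in the controls 193, 194, 195 and 196. All 4 EAE rats lay above all 4 controls. The change was 0.67 ± 0.12 (SE), or 1.6-fold, with an adjusted p of 0.00182, and it passed under every alternative tried, with changes of 0.61 to 0.77.

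Bin1 had gene levels of 7.13, 7.14, 7.07 and 7.18 in the EAE rats, against 7.92, 7.67, 7.58 and 7.75 in the controls. The EAE values were tightly grouped, with an SD of 0.05 against 0.15 in controls, and all lay below the lowest control. The change was -0.60 ± 0.10 (SE), or 1.51-fold lower in EAE, with an adjusted p of 0.00175. This call depended on the gene summary. With the median of the probe sets in place of their mean, the change was -0.31 with an adjusted p of 0.247.

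Mapt had gene levels of 6.42, 6.08, 6.46 and 6.53 in the EAE rats, against 7.0, 6.71, 6.41 and 7.08 in the controls. The groups overlapped through control 195, which lay below 3 of the EAE rats. The change of -0.43 ± 0.16 (SE) had an adjusted p of 0.0726 and did not pass. It passed under 6 of 17 alternatives: at an adjusted p of 0.0135 without control 195 (-0.56), 0.0238 without control 195 and EAE 218, 0.0265 with array weights, 0.0274 with median centring, 0.034 with the 50th percentile filter and 0.0366 with quantile normalization.

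App had gene levels of 10.54, 10.36, 10.61 and 10.71 in the EAE rats, against 10.79, 10.53, 10.18 and 10.51 in the controls. The EAE values fell inside the span of the controls, whose lowest was again control 195, and the change was 0.05 ± 0.14 (SE, adjusted p = 0.808). Clta had gene levels of 8.48, 8.51, 8.68 and 8.74 in the EAE rats, against 8.58, 8.48, 8.53 and 8.70 in the controls, a change of 0.03 ± 0.10 (SE, adjusted p = 0.862). These near-zero changes took the other sign after median centring, -0.01 for App and -0.04 for Clta.

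**Figure D1:**
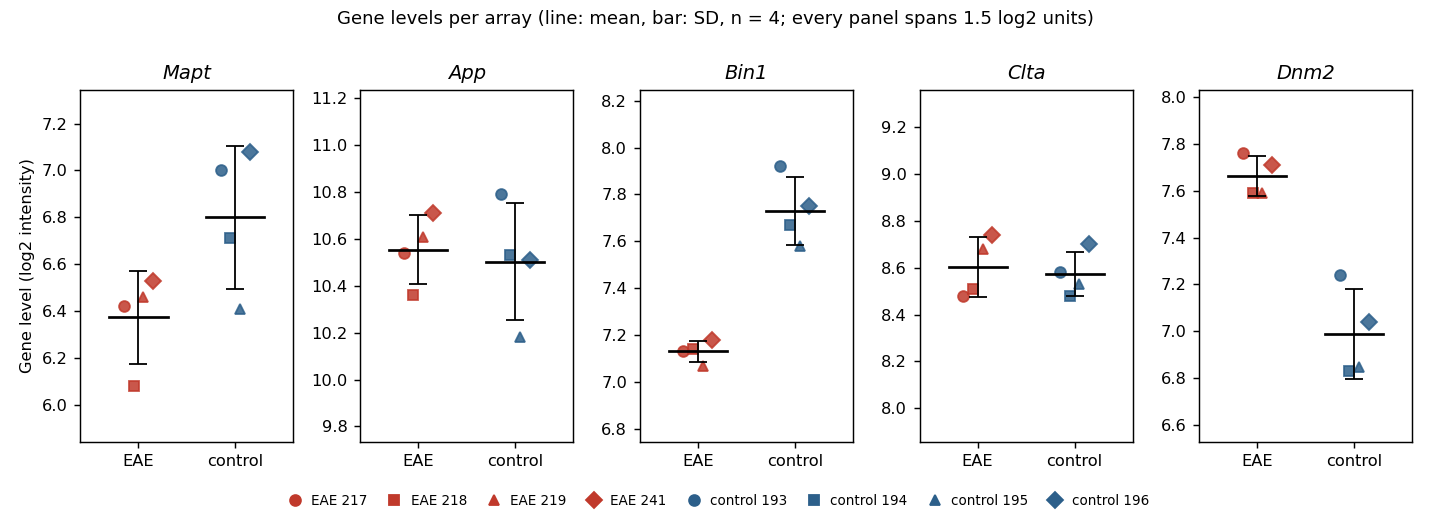
Gene levels (log2 intensity, the mean of a gene's measured probe sets) of the 5 genes on each array, with EAE left of control, group means as lines and SD as bars (n = 4 each). Dnm2 was higher and Bin1 lower in all 4 EAE rats, while Mapt, App and Clta overlapped between the groups.

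Because a whole cord was read, fewer cells of a type and less RNA per cell cannot be told apart in any of these changes. Markers of several cell types moved with the groups. Of 12 measured neuronal markers 5 fell and none rose, led by Gad2, which makes GABA (-0.89 ± 0.18, SE), and the list mean ran between 8.65 and 9.0 in EAE and between 8.99 and 9.40 in controls. Of 11 markers of mature oligodendrocytes 6 fell and none rose, led by Ugt8 of myelin lipid synthesis (-1.18 ± 0.15), with list means of 8.60 to 8.87 in EAE and 8.94 to 9.42 in controls. All 10 genes listed as markers of microglia, monocytes and macrophages rose, led by Cd74, which chaperones MHC class II, at least 120-fold higher in EAE. The list means were 9.56 to 9.74 in EAE and 5.76 to 6.0 in controls. Whether these cells alone carried the rises of Cd74 and of the leukocyte gene Ptprc was not tested.

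Of 6 genes listed as T cell markers 5 rose and Cd247 did not pass. The largest rise was in Cd4 (3.56 ± 0.15), and whether T cells alone carried it was not tested. The list means were 6.15 to 6.35 in EAE and 4.11 to 4.50 in controls. In controls 5 of these 6 and 4 of the 10 myeloid markers, Cd74 among them, lay at or below log2 4.77, the level that 95% of olfactory receptor genes, which should be silent in the cord, stayed under, and "at least" folds are taken against that level. Of 9 astrocyte markers 3 rose, led by the glutamate transporter Slc1a3 (1.15 ± 0.19), Fgfr3 fell by 0.37 ± 0.10, and 5 did not pass. The median change of the 9 was -0.18, with list means of 9.12 to 9.59 in EAE and 8.94 to 9.64 in controls. Of 3 endothelial markers Slco1c1 fell by 0.76 ± 0.16 and 2 did not pass. The median change of that list was -0.06 (list means 6.86 to 7.12 in EAE, 7.11 to 7.45 in controls). Of 3 Schwann cell markers Egr2, at background in controls, was at least 1.37-fold higher and 2 did not pass. The median change there was 0.01 (list means 6.02 to 6.53 in EAE, 5.61 to 6.71 in controls). Whether Schwann cells carried the rise of Egr2 was not tested. The part of these shifts in the changes of the 5 genes was not tested.

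The next question was whether the probe sets of a gene moved alike. Each was tested by itself with limma over all 62176 measured probe sets, of which 10.2% rose and 10.2% fell (20.4% in all). The groups did not overlap in 25.4%, with EAE higher in 11.5% and lower in 13.9%. Among the 88 probe sets of the 5 genes 11 rose, 15 fell and 62 did not pass, so 29.5% were called. Each probe set was also compared with the mean of the other measured probe sets of its gene, called its relative change, with limma's diffSplice. A gene's exon usage was called from the F test over its probe sets. diffSplice uses 1 variance for all probe sets of a gene and treats probe sets of an array as independent, which those of a rat are not. The separate-variance test sets each probe set's relative change against its own spread between rats, moderated by limma. A gene's result then comes from its probe sets' p-values by the Simes method, so this test differs from the F test in more than the variance. All 5 genes passed the F test, as did 26.6% of 5563 genes, but none of the 5 passed the separate-variance test, as 13.1% did, so the F test's adjusted p-values below are not to be read alone.

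**Figure D2:**
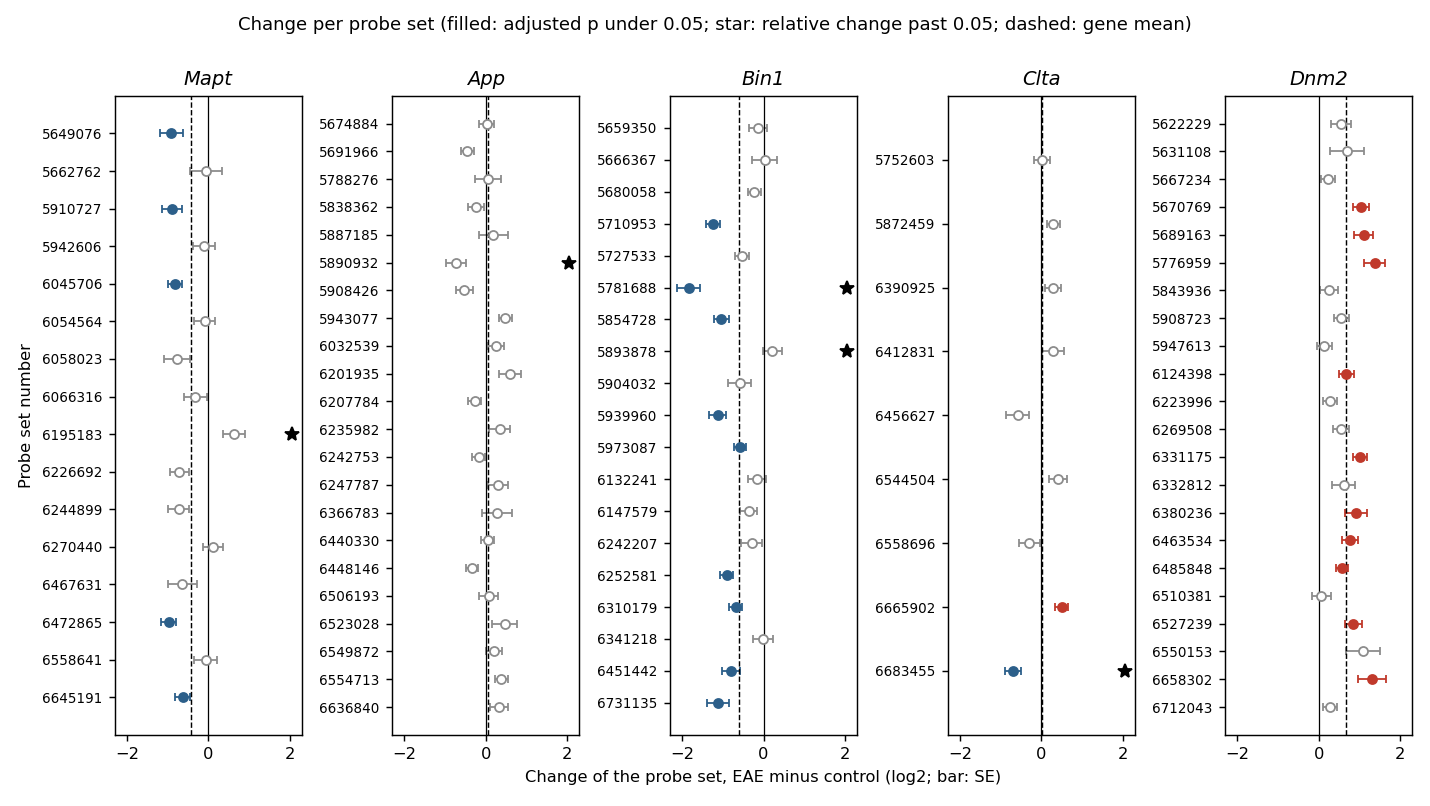
Change of each measured probe set, EAE minus control, on the log2 scale with SE bars, ordered by probe set number within each gene. Filled points passed an adjusted p of 0.05 (red higher, blue lower in EAE), stars mark probe sets whose relative change passed, and dashed lines show the gene's change. All 22 Dnm2 probe sets lie right of 0, whereas Bin1 runs between -1.84 and 0.22.

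Bin1 differed most among its probe sets. Of 19 measured, 9 fell, by 0.57 to 1.84, none rose, and the other 10 had changes between -0.59 and 0.22. In 10 probe sets all 4 EAE rats lay below all 4 controls, and in none did they lie above. The F test for exon usage gave an adjusted p of 9.61e-08, the Simes test of diffSplice 4.47e-05, and the separate-variance test 0.0942.

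Probe set 5781688 of Bin1 read 6.07, 4.95, 5.95 and 6.24 in the EAE rats 217, 218, 219 and 241, against 7.47, 7.48, 7.52 and 8.09 in the controls 193, 194, 195 and 196. The groups lay more than 1 log2 unit apart, and EAE 218 was lowest. It fell by 1.84 ± 0.29 (SE, adjusted p = 0.00147), which is 3.58-fold. Relative to the rest of the gene it lay at -1.12, -2.31, -1.19 and -0.99 in the EAE rats and at -0.48, -0.20, -0.06 and 0.36 in the controls, again without overlap. The relative change was -1.31 ± 0.23 (SE), with an adjusted p of 1.51e-05 in diffSplice, where 5.13% of 56816 probe sets were called (2.56% higher and 2.57% lower than the rest of their gene). In the separate-variance test, where 3.79% were called, its adjusted p was 0.0367. It passed under every alternative tried.

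Probe set 5893878 of Bin1 did not fall with the gene. It read 7.44, 7.83, 7.75 and 7.53 in the EAE rats, against 7.86, 7.22, 7.63 and 6.96 in the controls, so the groups overlapped and the change of 0.22 ± 0.22 (SE, adjusted p = 0.532) did not pass. Relative to the rest of the gene it lay at 0.33, 0.73, 0.72 and 0.37 in the EAE rats and at -0.06, -0.47, 0.06 and -0.84 in the controls. These did not overlap, and the relative change of 0.86 ± 0.23 (SE) had an adjusted p of 0.0106. The adjusted p was 0.0637 in the separate-variance test, 0.0642 without control 194, 0.133 without control 196 and 0.0566 without EAE 219.

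Other Bin1 probe sets, chosen after their values were seen, show both sides of the gene. Probe set 5710953 read 7.71, 7.71, 7.36 and 7.56 in the EAE rats, against 8.70, 8.78, 8.80 and 9.03 in the controls, and fell by 1.24 ± 0.17 (SE, adjusted p = 0.00055). Probe set 5680058, the brightest of the gene, read 9.71, 9.79, 9.64 and 9.79 in the EAE rats, against 10.15, 9.91, 9.77 and 10.02 in the controls. It changed by -0.23 ± 0.16 (SE, adjusted p = 0.358). One of the 9 falls, in probe set 6451442, lay below 5.21 in the means of both groups (4.29 in EAE and 5.10 in controls), the level that 95% of single olfactory receptor probe sets stayed under. Another, in probe set 6731135, lay below that level in EAE (4.91) but not in controls (6.03).

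Clta had probe sets that differed in opposite directions. Of 9 measured, 1 rose, 1 fell and 7 did not pass. Among the 5 with mean levels above 9, 4 had changes of 0.29 to 0.50 and 1 fell by 0.70. The F test for exon usage gave an adjusted p of 0.00579 and passed without each array in turn, with 0.0728 in the separate-variance test.

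Probe set 6683455 of Clta read 9.54, 9.07, 9.70 and 9.72 in the EAE rats, against 10.12, 10.21, 9.97 and 10.50 in the controls. All 4 EAE rats lay below the controls, and the change was -0.70 ± 0.20 (SE, adjusted p = 0.0362). No Clta probe set fell without control 193, control 194, control 196, EAE 217, EAE 218 or EAE 241. Relative to the rest of the gene it lay at 1.19, 0.63, 1.15 and 1.10 in the EAE rats and at 1.73, 1.95, 1.62 and 2.03 in the controls. The relative change was -0.82 ± 0.24 (SE), with an adjusted p of 0.0266, and 0.041 in the separate-variance test. It did not pass without control 194 (adjusted p = 0.104), control 196 (0.0939), EAE 217 (0.0579), EAE 218 (0.0976) or EAE 241 (0.0673), with relative changes of -0.69 to -0.89 over the runs that left out 1 array.

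Probe set 6665902 of Clta, the brightest, moved the other way. It read 11.28, 11.52, 11.23 and 11.39 in the EAE rats, against 10.81, 10.81, 10.92 and 10.87 in the controls, without overlap. It rose by 0.50 ± 0.16 (SE, adjusted p = 0.0438), but no Clta probe set rose when any 1 array other than control 195 was left out, or after median centring. Its relative change of 0.53 ± 0.24 (SE, adjusted p = 0.217) did not pass.

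Dnm2 was higher across its probe sets, with 10 of them past the threshold. All 22 measured probe sets had a higher mean in EAE, with changes of 0.06 to 1.37 and a median of 0.64. Of these 10 rose and 12 did not pass, and in 11 all 4 EAE rats lay above all 4 controls. One of the 10, probe set 6380236, lay at background in both groups and counted as measured through its EAE arrays. It read 5.27, 4.97, 4.27 and 5.54 in the EAE rats, against 4.08, 3.86, 3.93 and 4.54 in the controls, and reached log2 3.98 in all 4 EAE rats but 2 controls. The count of rises was 5 without control 194 or EAE 217 and 6 without EAE 241. The exon usage F test gave an adjusted p of 0.0202, but no single probe set had a relative change past the threshold, and the Simes test gave 0.223. Without each of 7 of the 8 arrays the F test did not pass, with adjusted p of 0.0575 to 0.148, and without control 193 it gave 1.96e-05.

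Probe set 5776959 of Dnm2, which rose most, read 9.05, 9.19, 8.94 and 8.89 in the EAE rats, against 8.32, 7.61, 6.95 and 7.71 in the controls. The EAE rats were closely grouped above a wide control group. Its change was 1.37 ± 0.26 (SE, adjusted p = 0.00491), and its relative change of 0.73 ± 0.26 (SE) had an adjusted p of 0.0895. Probe set 6510381, with the largest negative relative change (-0.64 ± 0.26, SE, adjusted p = 0.156), read 6.08, 5.80, 6.28 and 5.65 in the EAE rats, against 5.55, 5.64, 6.31 and 6.08 in the controls. The groups overlapped there, and without control 193 both relative changes passed, at 0.88 (adjusted p = 0.0144) and -0.85 (adjusted p = 0.0192).

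**Figure D3:**
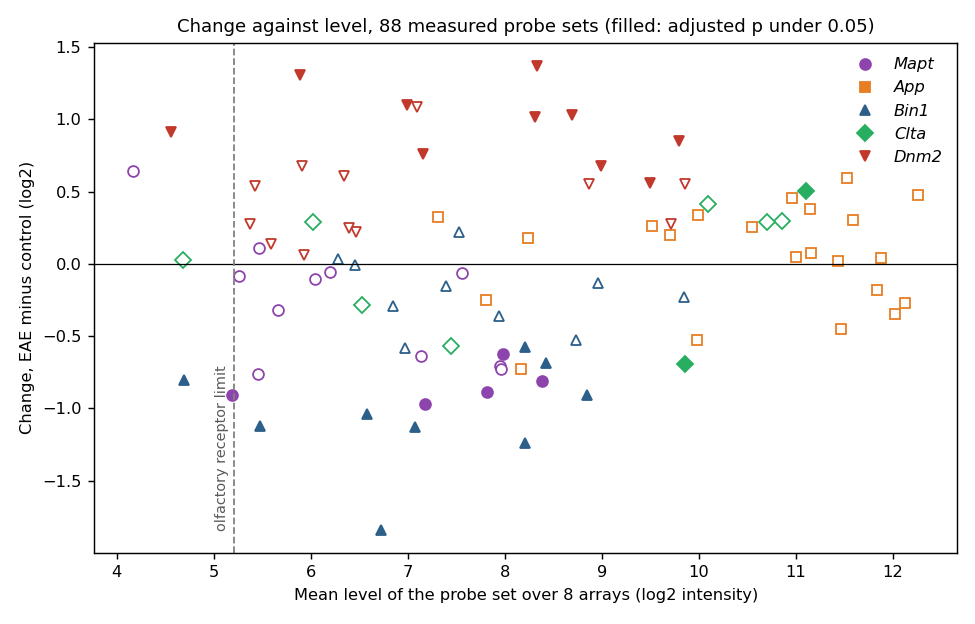
Change of each of the 88 measured probe sets (EAE minus control, log2) against its mean level over 8 arrays (log2 intensity), with filled symbols for an adjusted p under 0.05 and a dashed line at 5.21, the olfactory receptor limit for single probe sets. Filled symbols lie above 0 for Dnm2, below 0 for Mapt and Bin1 and on both sides for Clta, and App has none. Levels of different probe sets differ with the probes, so the horizontal axis serves to show which lie near background.

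Mapt probe sets either fell or did not pass. Of 16 measured, 5 fell, by 0.62 to 0.97, none rose, and 14 had a lower mean in EAE. By mean level, 1 of the 2 at or below the background limit of 5.21 fell, none of the 6 up to 7, and 4 of the 8 between 7 and 9. Over all measured probe sets 5.92%, 9.65% and 14.7% fell in these classes, and 13.0%, 22.0% and 27.1% were called in either direction. The fall in the lowest class was in probe set 5649076 (adjusted p = 0.0473). Its mean lay under the limit in EAE (4.73) but above it in controls (5.64). The count of Mapt falls was 2 without control 193, control 196 or EAE 218, and 3 without control 194, EAE 217 or EAE 219. Without control 196, 1 Mapt probe set rose.

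Probe set 6472865 of Mapt, with the largest fall, read 6.35, 6.74, 6.85 and 6.85 in the EAE rats, against 7.60, 7.70, 7.51 and 7.86 in the controls. The groups lay well apart, and the change was -0.97 ± 0.18 (SE, adjusted p = 0.00409), while its relative change of -0.57 ± 0.31 (SE, adjusted p = 0.339) did not pass. Probe set 6558641, chosen after its values were seen, read 7.84, 7.04, 7.74 and 7.49 in the EAE rats, against 8.09, 7.61, 6.83 and 7.83 in the controls. It changed by -0.06 ± 0.29 (SE, adjusted p = 0.908), with control 195 lowest of all 8 arrays.

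The F test for exon usage of Mapt gave an adjusted p of 0.0232. The gene's only relative change past the threshold was in a probe set at background. Probe set 6195183 read 4.30, 4.39, 4.26 and 5.0 in the EAE rats, against 3.32, 3.90, 3.67 and 4.50 in the controls. It lay under the background limit of 5.21 in both groups and reached log2 3.98 in all 4 EAE rats but in 1 control, so it counted as measured through the EAE arrays. Its own change did not pass (adjusted p = 0.124). Relative to the rest of the gene it lay at -2.25, -1.80, -2.34 and -1.63 in the EAE rats and at -3.93, -3.00, -2.92 and -2.76 in the controls, a relative change of 1.14 ± 0.31 (SE, adjusted p = 0.0109). This did not pass without control 193 (0.0822) or EAE 241 (0.0876). With probe sets kept only at the 50th percentile, log2 5.34, both it and probe set 6054564 were left out, and the F test on the other 14 gave an adjusted p of 0.238. With all 16 the F test also did not pass without control 194 (0.128), EAE 217 (0.0827), EAE 218 (0.0625) or EAE 241 (0.182). With the 50th percentile filter the gene-level change of Mapt was -0.53 (adjusted p = 0.034).

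No App probe set passed the test by itself. Of 22 measured, all well above background with mean levels of 7.31 to 12.26, 15 had a higher and 7 a lower mean in EAE, and none passed limma's test, though 1 rose without control 193 and 1 fell without control 194. In 6 the groups did not overlap, 2 with EAE higher and 4 with EAE lower, a share near the 25.4% over all probe sets. Probe set 5943077, one of these chosen after its values were seen, read 12.48, 12.59, 12.40 and 12.52 in the EAE rats, against 12.20, 11.88, 12.08 and 11.93 in the controls (change 0.47 ± 0.16, SE, adjusted p = 0.0595). Probe set 6448146, chosen likewise, read 11.85, 11.71, 11.91 and 11.94 in the EAE rats, against 12.25, 12.16, 12.15 and 12.23 in the controls (change -0.35 ± 0.15, SE, adjusted p = 0.138). Neither passed, and both were picked for groups that did not overlap.

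Probe set 5890932 of App had the only relative change of the gene past the threshold. It read 7.68, 7.79, 7.83 and 7.91 in the EAE rats, against 8.35, 7.94, 8.96 and 8.89 in the controls, without overlap. Its own change of -0.73 ± 0.24 (SE) had an adjusted p of 0.0525, and its relative change of -0.82 ± 0.25 (SE) one of 0.0275. The relative levels overlapped, at -3.00, -2.69, -2.91 and -2.93 in the EAE rats and at -2.55, -2.71, -1.28 and -1.70 in the controls, and the controls 195 and 196 were highest. Without control 195 the relative change was -0.56 (adjusted p = 0.123), without control 196 it was -0.70 (0.201), and in the separate-variance test the adjusted p was 0.156. It also did not pass without EAE 217 (0.131), EAE 219 (0.0871) or EAE 241 (0.0929).

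Probe set 6201935 had the largest positive relative change of App, 0.57 ± 0.25 (SE, adjusted p = 0.191). It read 11.79, 11.73, 11.82 and 11.96 in the EAE rats, against 11.90, 11.43, 10.44 and 11.13 in the controls, with control 195 lowest. Without control 193 its relative change was 0.70 and passed (adjusted p = 0.043). The F test for App gave an adjusted p of 0.0168, but 0.0782 in the Simes test and 0.259 in the separate-variance test. It did not pass without control 194 (0.0532), control 195 (0.053), control 196 (0.279), EAE 217 (0.189), EAE 219 (0.127) or EAE 241 (0.128).

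**Figure D4:**
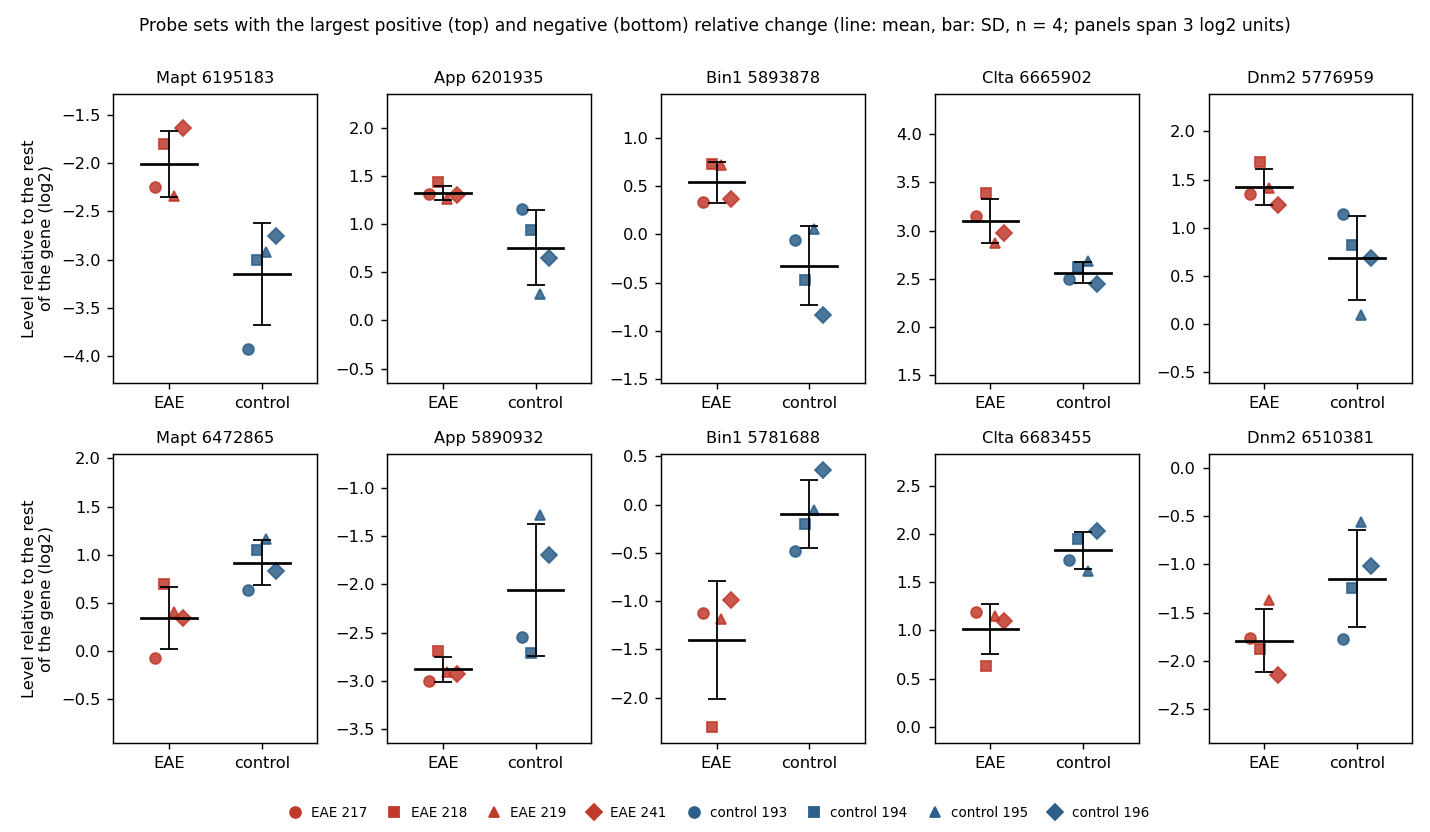
Level of a probe set minus the mean of the other measured probe sets of its gene (log2) on each array, EAE left of control, for the probe set with the largest positive (top) and negative (bottom) relative change of each gene. Lines are means and bars SD (n = 4 each); Bin1 5781688 (-1.31) and Clta 6683455 (-0.82) part the groups and App 5890932 (-0.82) overlaps, while Mapt 6195183 (1.14) lay at background in both groups and was measured through the EAE arrays.

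The spread of changes within a gene put these values beside the rest of the array. Over 2650 genes with at least 9 measured probe sets, the SD of the changes of a gene's probe sets had a median of 0.37 and a 95th percentile of 0.72. It was 0.53 for Bin1, 0.46 for Mapt, 0.44 for Clta, 0.38 for Dnm2 and 0.36 for App. Bin1 thus lay above 86.0% of these genes, Mapt above 77.6%, Clta above 73.9%, Dnm2 above 55.2% and App above 46.9%.

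Partners of the 5 genes were then counted in 4 lists, with the members left out, against the 13.7% of all genes that rose, the 17.4% that fell and a median change of -0.11. In the clathrin-mediated endocytosis list 9 of 27 measured genes fell and 3 rose, with a median change of -0.23. Among the falls counted was Dnm1l (-0.5 ± 0.13), a dynamin relative that acts in mitochondrial fission rather than in endocytosis. The largest falls were in the early endosome GTPase Rab5a, read by 1 probe set (-0.79 ± 0.25, SE), in Sh3gl3, an endophilin that bends membranes (-0.74 ± 0.14), and in Pacsin1, a neuronal partner of dynamin (-0.70 ± 0.10). Rises were seen in the adaptor Dab2 (1.34 ± 0.15), in Pacsin2, the widely expressed relative of Pacsin1 (0.60 ± 0.11), and in Gak, which helps uncoat vesicles (0.37 ± 0.13), although Gak did not pass under 12 of 17 alternatives and Rab5a under 5. Without control 195 the list had 14 falls.

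Relatives of the endocytic members, chosen after their values were seen, did not move with them alike. Amph, the neuronal relative of Bin1, fell as Bin1 did, by 0.58 (adjusted p = 0.0138). Dnm3 fell by 0.61 (adjusted p = 0.00365) and the synaptic Dnm1 had a change of -0.33 (adjusted p = 0.0637), where Dnm2 rose. Cltb, the other clathrin light chain, changed by -0.28 (adjusted p = 0.0817) and the heavy chain Cltc by -0.23 (adjusted p = 0.146), and neither passed.

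Of 17 genes of tau and microtubule regulation 5 fell and 1 rose, with a median change of -0.23. Stmn4, a neuronal stathmin that binds tubulin, fell by 0.78 ± 0.12, the tau kinase Mark1 by 0.54 ± 0.09 and Camk2b, a calcium-dependent kinase, by 0.49 ± 0.17, though Camk2b did not pass under 8 of 17 alternatives. The related kinase Mark2 rose by 0.60 ± 0.15. Rises numbered 3 without control 193. This list's count of falls was 2 without control 194, control 196, EAE 217, EAE 218 or EAE 219.

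Of 21 genes of the App family, its processing and its binding partners 4 rose and 4 fell, with a median change of -0.04. Rises were largest in the lipoprotein Apoe (0.91 ± 0.21), the peptidase Ece1 (0.58 ± 0.13) and Adam17, a protease that can cut App (0.57 ± 0.10). Falls were largest in Mme, neprilysin, a peptidase that degrades amyloid peptide (-0.92 ± 0.12), in the reticulon Rtn3 (-0.54 ± 0.10) and in the neuronal adaptor Apba2 (-0.48 ± 0.14), the last not passing under 8 of 17 alternatives. Without control 195 this list had 7 falls.

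Of 14 regulators of neuronal exons 5 fell and 4 rose, with a median change of 0.04. The rises included Rod1, now named Ptbp3 (1.75 ± 0.14), its relative Ptbp1, a repressor of neuronal exons (0.72 ± 0.11), and Sfrs10, now named Tra2b, which is read by 1 probe set (0.58 ± 0.16) and did not pass under 5 alternatives. The falls included Khdrbs3 (-1.05 ± 0.12), Khdrbs2 (-0.77 ± 0.13) and the neuronal RNA-binding protein Elavl3 (-0.77 ± 0.16). Ptbp2, the form found in neurons and chosen after its values were seen, fell by 0.76 (adjusted p = 0.000373). These are levels of regulator RNA, and their part in the exon usage of the 5 genes was not tested.

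**Figure D5:**
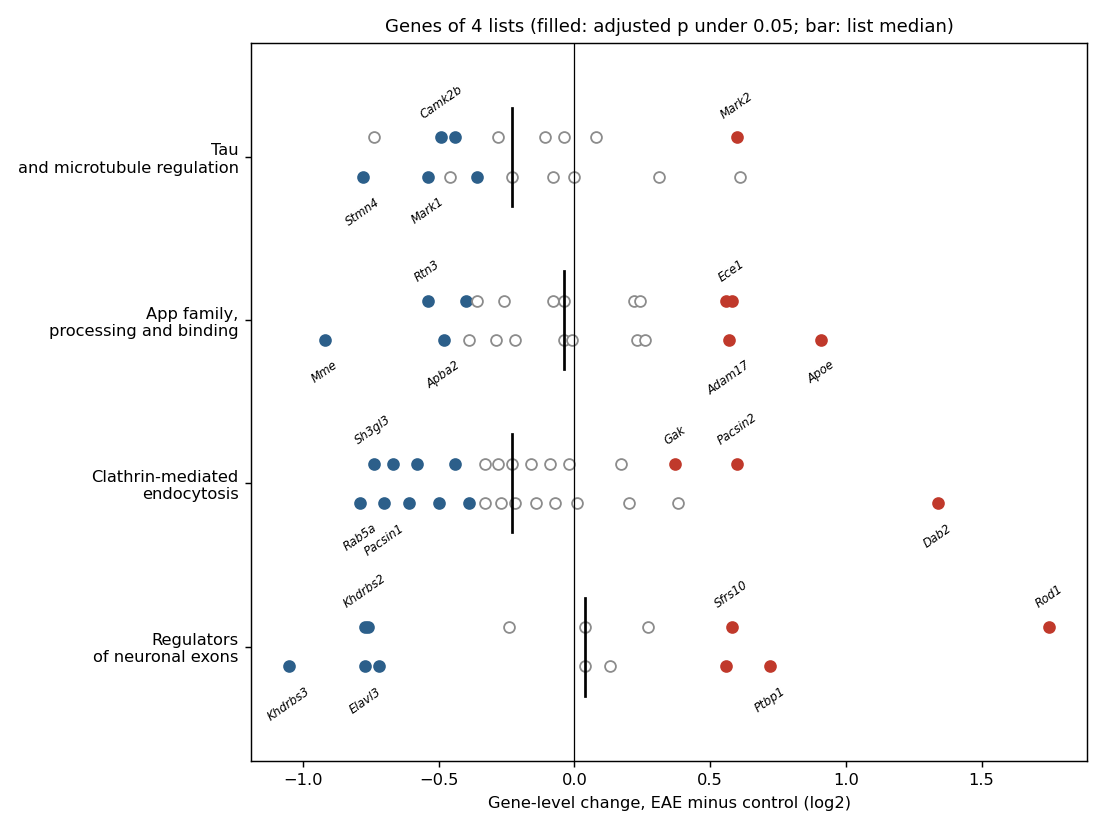
Gene-level change (EAE minus control, log2) of the measured genes of 4 lists, with filled points for an adjusted p under 0.05 (red higher, blue lower in EAE), bars at the list medians and the genes named by rule labelled. Rises and falls occur in each list, with 9 falls, Dnm1l among them, and 3 rises in the clathrin-mediated endocytosis list.

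Genes whose values over the 8 arrays lay closest to each member, after centring each gene on its mean, were sought among 5562 genes with at least 3 measured probe sets. Closest to Bin1 were Slc4a8, a bicarbonate transporter (root mean square difference 0.03 log2 units, change -0.60 ± 0.11), and Prg-3, now named Plppr1 (0.05, change -0.55 ± 0.10). Closest to Mapt were Rph3a, a synaptic vesicle protein (0.04, change -0.46 ± 0.15, adjusted p = 0.0375), and the microtubule protein Map1a (0.05, change -0.46 ± 0.16, adjusted p = 0.0575). Closest to Dnm2 were Eif4b, a translation factor (0.08, change 0.67 ± 0.10), and the protease Capn1 (0.08, change 0.54 ± 0.10). The genes nearest to App, Dalrd3 (0.04) and Ddx17 (0.05), and to Clta, Nap1l1 and Ssbp3 (0.06 each), had changes between -0.06 and 0.12 that did not pass.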

How the data were processed

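The deposited values are log2 probe set intensities from rat exon arrays, normalized by the authors. The submitters' processing notes list RMA, Partek and Affymetrix Expression Console, with neither role nor version. No genome build was used. Probe sets were joined to genes through the platform annotation (76186 of 80939 with 1 symbol). Symbols are printed as annotated there. Measured probe sets were averaged into a gene's value. The background limits came from olfactory receptors (1048 genes, 2014 probe sets), unfiltered.

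Changes (EAE minus control) of genes and of probe sets were tested 2-sided by lmFit and eBayes of limma 3.58.1, run in R 4.3.3. Exon usage was tested with diffSplice where a gene had 3 or more measured probe sets. P-values were adjusted by Benjamini-Hochberg over the whole table, with a threshold of 0.05. Errors of changes are SE and those of means SD. The gene and exon usage tests were tested on simulated data. There the exon usage F test called more genes without a moved probe set than its threshold of 0.05 allows. Figures were drawn with matplotlib 3.10.9. The labels give no batch or litter per animal, so no such term was fitted. No sequence or coordinate was used.

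The members, lists and tests were chosen with earlier results of these data known. Named probe sets are those past the threshold for relative change (at most 6 per gene) and the largest relative change in each direction. Named list genes are the 3 largest rises and falls past the threshold per list, and the largest of each per marker list. The 2 genes closest in pattern to each member are named too. Alternatives covered filtering, scaling, array weights, gene summary, variance model, the exon usage test and leaving out arrays.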

Additional observations from a re-analysis of the deposited data

Results flagged for a closer look

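Among 50 groups of 4 rats examined for the levels named above, 3 held an array far from its group by Dixon's test, and chance gives about 1 in 20. Bin1 probe set 5781688 read 8.09 in control 196, against 7.47 to 7.52 in the other controls. Relative to the rest of Bin1 the same probe set lay at -2.31 in EAE 218, against -1.19 to -0.99 in the other EAE rats. Its relative change was -1.01 (adjusted p = 0.00468) without EAE 218 and -1.16 (adjusted p = 0.00141) without control 196. Clta probe set 6683455 lay at 0.63 relative to the rest of the gene in EAE 218, against 1.10 to 1.19 in the other EAE rats, and its relative change without that rat was -0.69 (adjusted p = 0.0976).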

How the results depend on the processing

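The groups had 4 arrays each and the arrays' number limits precision. No paired analysis was possible because the labels give neither a litter nor a pair for each animal. Dnm2 stayed past the threshold as a gene under all 17 alternatives and Bin1 under 16. Counts of single probe sets and of list genes under the alternatives were added after seeing the data. The causes of the changes below were not tested. Mapt passed as a gene at -0.53 with the 50th percentile filter, -0.46 with quantile normalization, -0.50 with median centring, -0.39 with array weights and -0.46 without control 195 and EAE 218. Bin1 was at -0.31 with the median of probe sets. App turned to -0.01 with median centring and -0.05 without control 195. Clta turned to -0.04 with median centring, -0.38 with the median of probe sets, -0.0018 without control 194 and -0.02 without EAE 241. Exon usage had adjusted p of 0.104 for Mapt, 0.259 for App, 0.0942 for Bin1, 0.0728 for Clta and 0.259 for Dnm2 in the separate-variance test. It had 0.0782 for App and 0.223 for Dnm2 in the Simes test, 0.238 for Mapt with the 50th percentile filter, and 0.0582 for Mapt and 0.357 for Dnm2 without control 195 and EAE 218. Array weights gave 8 Mapt falls, and 1 App rise and 1 fall. The 50th percentile filter gave 1 App rise and 2 falls, quantile normalization 1 App rise, and median centring 1 App fall and 0 Clta rises, as did leaving out control 195 and EAE 218 for the Clta rises. In the tau list rises numbered 2 with the 50th percentile filter, quantile normalization, trend and robust moderation, no moderation and without control 195 and EAE 218, 3 with array weights and 0 with the median of probe sets. Its falls numbered 8 with median centring or array weights, and 3 with the median of probe sets or no moderation. The App list had 7 rises and 7 falls with array weights. The endocytosis list had 14 falls with median centring and 1 rise with the median of probe sets.

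With 1 array left out in turn, gene changes ran between -0.56 and -0.33 for Mapt, -0.05 and 0.15 for App, -0.65 and -0.53 for Bin1, -0.02 and 0.07 for Clta, and 0.62 and 0.76 for Dnm2. Adjusted p for exon usage ran between 0.0186 and 0.182 for Mapt, 1.64e-05 and 0.279 for App, 1.36e-08 and 9.29e-05 for Bin1, 0.0021 and 0.0446 for Clta, and 1.96e-05 and 0.148 for Dnm2. Mapt did not pass without control 194, EAE 217, EAE 218 or EAE 241. Probe sets that rose numbered 0 to 1 for Mapt, App and Clta and 5 to 11 for Dnm2, and those that fell 2 to 6 for Mapt, 0 to 1 for App and Clta and 7 to 9 for Bin1. List genes that rose and fell numbered 1 to 3 and 2 to 7 in the tau list, 4 to 4 and 3 to 7 in the App list, 2 to 4 and 7 to 14 in the endocytosis list, and 3 to 4 and 5 to 5 among regulators of neuronal exons.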
